A study of Mus musculus with 6 samples.

Results

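A group of 10 genes for chemotactic proteins, made up of CC chemokines and the CX3C chemokine Cx3cl1, was followed in cultured fibroblasts of fibrotic mouse lung after an siRNA against Wt1. The members were chosen by symbol (Ccl2, Ccl5, Ccl7, Ccl8, Ccl9, Ccl17, Ccl19, Ccl20, Ccl25 and Cx3cl1), and all 10 were found among the 24061 gene IDs of the count table. The tested libraries are 3 from cells that received a stealth siRNA against Wt1 (numbered 4 to 6), and they were set against 3 from cells that received a stealth control siRNA (numbered 1 to 3). All 6 come from cells labelled resident fibroblasts of mice with a TGF-alpha transgene. The sources used here do not give the promoter of the transgene, the age and number of the mice, the siRNA sequences or the time after transfection. Nothing in the labels tells if replicate libraries are separate cultures, so p-values measure the spread between these samples only, which may be technical.

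Chemokines are small secreted proteins that bind heparan sulfate and attract leukocytes through receptors coupled to G proteins. The CC class carries adjacent cysteines near the start of the mature protein, whereas CX3CL1 has other residues between them, sits at the cell surface on a mucin-like stalk, and is released by the proteases ADAM10 and ADAM17. Fibroblasts are a known source of the monocyte attractants CCL2 and CCL7, which act on CCR2, and monocytes drawn in this way become macrophages of the fibrotic lung. Transcription of many of these genes is known to follow NF-kB and interferon signalling.

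The stretches of coding sequence that give the classes their names are shown for 5 CC members that attract monocytes or other myeloid cells or T cells and were read in these fibroblasts, and for Cx3cl1, 5′ to 3′, from the GENCODE M21 transcripts of GRCm38, with the cysteine codons in capitals.
Ccl2: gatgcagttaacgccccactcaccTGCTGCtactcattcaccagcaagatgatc
Ccl7: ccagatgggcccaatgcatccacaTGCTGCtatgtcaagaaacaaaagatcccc
Ccl8: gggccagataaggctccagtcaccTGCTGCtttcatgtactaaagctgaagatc
Ccl9: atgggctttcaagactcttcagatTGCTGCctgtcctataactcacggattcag
Ccl5: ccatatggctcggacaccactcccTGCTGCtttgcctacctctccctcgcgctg
Cx3cl1: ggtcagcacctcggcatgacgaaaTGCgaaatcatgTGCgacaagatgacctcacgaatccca
In the 5 CC genes 0 codons lie between the capitals, and in Cx3cl1 3 codons do. How far reads could be shared with other genes was measured from the transcripts: of all windows of 50 bases in their annotated transcripts, 0% of those of Ccl2, Ccl5, Ccl7, Ccl8 and Cx3cl1 occur in a transcript of another gene. The share was 1.97% for Ccl9 and 2.06% for Ccl25, all of the latter with Elavl1. It was 52% for Ccl19, which has near-identical pseudogene copies, so that the value of Ccl19 is uncertain.

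Levels are given as CPM, the counts in each 1e6 of a library's total after TMM scaling. The targeted gene, Wt1, was at 11.4, 8.63 and 7.92 CPM in the Wt1 siRNA libraries, against 48.8, 55.7 and 51.5 CPM in the control libraries, and its log2 fold change was -2.48 ± 0.16 (SE). Its p from the quasi-likelihood test of edgeR was 5.98e-06 after Benjamini-Hochberg adjustment. Total counts ran from 26.1 to 32.1 (in units of 1e6). All 9 fibroblast markers had reads in every library.

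None of the chemokine members passed the test. In bulk libraries such as these, fewer cells of a type and less RNA per cell cannot be told apart. Of the 10, 7 had enough reads to be tested, and with edgeR 0 rose and 0 fell at the threshold of 0.05 on the adjusted p (also 0 with DESeq2 and limma-voom). Of all 14190 genes tested, 19.3% passed, made up of 9.05% that were higher and 10.3% that were lower. Of these calls 46.8% were higher ones, against 31.9% with scaling by library size. Among tested genes with a mean under 6 CPM, where Ccl5, Ccl8, Ccl9, Ccl25 and Cx3cl1 lie, 7.03% passed, and among those with 20 to 60 CPM, where Ccl2 and Ccl7 lie, 24.2%. At an unadjusted p below 0.05 (edgeR) there were 2 of the 7, Ccl9 and Cx3cl1, against 32.1% of all genes tested in either direction. Both had a negative fold change, and 16.5% of all genes tested were below 0.05 with a negative one. Of the 7, 5 had a negative log2 fold change and 2 a positive one, with a median of -0.81 against 0.0035 over all genes tested, and 49.6% of all genes tested were negative. In 2 members, Ccl5 and Ccl9, all Wt1 siRNA libraries lay below all controls, as in 18.3% of all genes tested. The groups were apart in either direction in 36.4% of all genes tested. Ccl5 passed the filter through its control libraries alone, so its sign and separation were largely set by the filter. With the stricter filter, which Ccl5 did not pass, 6 members were tested and 4 were negative.

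**Figure D1:**
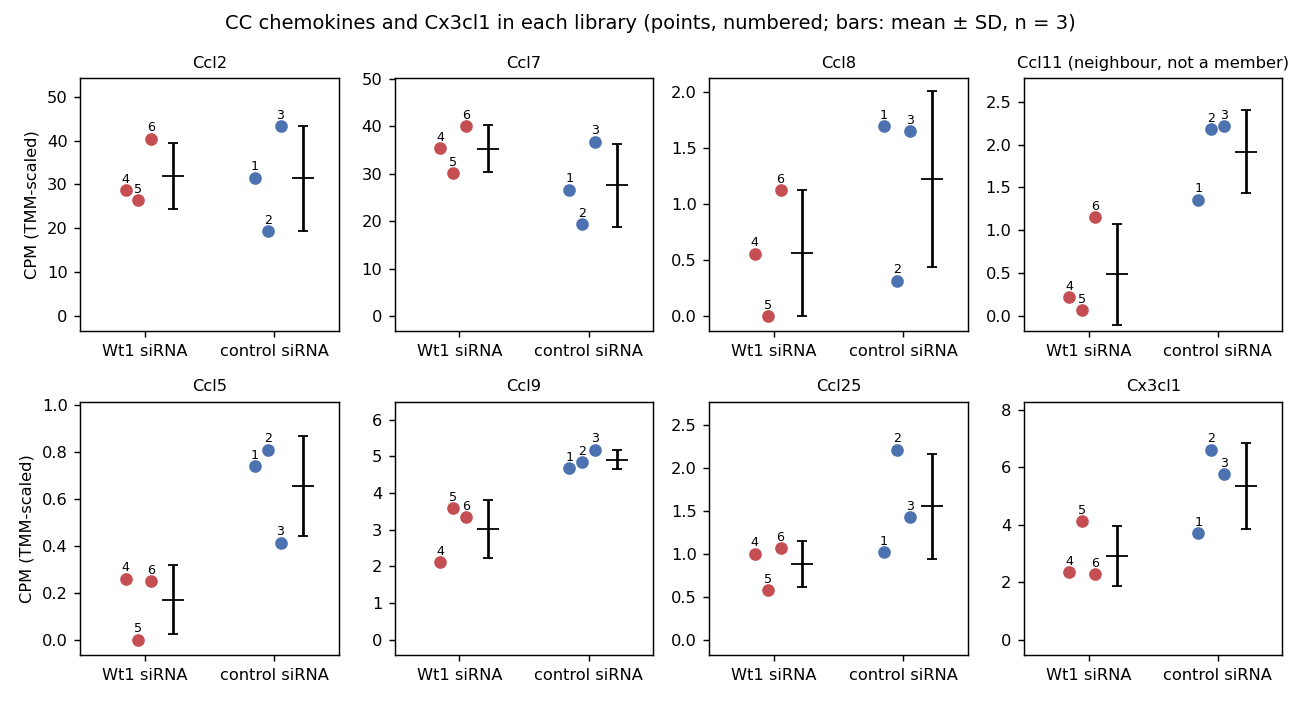
Level of the 7 tested members and of Ccl11, a neighbouring gene that is no member, in CPM on the vertical axis of each panel, for the 3 Wt1 siRNA libraries (left) and the 3 control siRNA libraries (right); points are libraries with their numbers, and black bars the mean and SD. Ccl2 and Ccl7 overlap between the groups around 30 CPM, and all 3 Wt1 siRNA libraries lie below all 3 controls for Ccl5, Ccl9 and Ccl11.

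The monocyte attractants Ccl2 and Ccl7 were by far the most abundant members. Ccl2 (gene ID 20296, GRCm38 chromosome 11, 82035577 to 82037452) stood at 28.7, 26.4 and 40.5 CPM after Wt1 siRNA and at 31.5, 19.4 and 43.3 CPM after control siRNA. The controls spanned the whole range of the Wt1 siRNA libraries, and the mean was 31.9 ± 7.54 CPM with Wt1 siRNA and 31.4 ± 12 CPM in the controls (SD, n = 3 each). The log2 fold change was 0.022 ± 0.25 (SE; 95% interval -0.52 to 0.56, edgeR adjusted p = 0.968), so that a fall below 0.698 or a rise above 1.48 times the control level lies outside the interval. Its sign rested on single libraries: the log2 fold change was -0.23 when control library 2 was left out, 0.32 when control library 3 was, and -0.18 when Wt1 siRNA library 6 was, and -0.060 with scaling by library size.

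Ccl7 (gene ID 20306, 82045712 to 82047525 on the same chromosome), a monocyte attractant 8.26 kb beyond the end of Ccl2, stood at 35.5, 30.2 and 40.1 CPM after Wt1 siRNA and at 26.7, 19.4 and 36.8 CPM after control siRNA. The highest control lay above the lower Wt1 siRNA libraries, so the groups overlapped. The log2 fold change was 0.35 ± 0.20 (interval -0.09 to 0.80, edgeR adjusted p = 0.262), and it was 0.62 without control library 3 (adjusted p = 0.056), the nearest that Ccl7 came to the threshold with a library left out.

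The reads of Ccl2 and Ccl7 were nearly equal in number. Ccl2 held 44.8%, 46.7% and 50.2% of the reads of the pair after Wt1 siRNA, against 54.2%, 50% and 54.1% after control siRNA. Exact binomial intervals were 42.4% to 47.1%, 44.2% to 49.2% and 48.3% to 52.2% after Wt1 siRNA, against 51.9% to 56.5%, 47% to 53% and 51.9% to 56.2% after control siRNA, and cover counting error only. The mean share was 47.2 ± 2.78% with Wt1 siRNA and 52.8 ± 2.39% in the controls (SD, n = 3 each), and the groups overlapped at Wt1 siRNA library 6 and control library 2 (exact permutation test, two-sided p = 0.2, where 0.1 is the smallest that 3 against 3 allows). This ratio was chosen after the values were seen.

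Together Ccl2 and Ccl7 took 91.1%, 86.9% and 90.9% of the reads of the 10 members after Wt1 siRNA, against 82.8%, 72.1% and 84.7% after control siRNA. The groups did not overlap in this share, which was not among the planned results and was not tested. Summed over all members the level was 70.5, 65.1 and 88.6 CPM after Wt1 siRNA and 70.3, 53.7 and 94.6 CPM after control siRNA, with overlapping groups. Per kilobase of exon, Ccl2 had a mean of 39.2 CPM with Wt1 siRNA and 38.6 CPM in the controls, and Ccl7 44.0 CPM with Wt1 siRNA and 34.5 CPM in the controls. The other members had at most 2.39 CPM per kilobase on average in either group, a value reached by Ccl8 in the controls, followed there by Ccl9 (1.63), Cx3cl1 (1.52), Ccl5 (1.23) and Ccl25 (1.0). Each neighbouring pair in that order overlapped in mean ± SD.

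Ccl8 (gene ID 20307, chromosome 11, 82115185 to 82116799), which in mice acts on CCR8, was counted 15, 0 and 36 times after Wt1 siRNA and 55, 9 and 44 times after control siRNA. The groups overlapped, at 0.558, 0 and 1.13 CPM after Wt1 siRNA against 1.70, 0.317 and 1.65 CPM after control siRNA. The log2 fold change was -1.10 ± 1.0 (interval -3.28 to 1.08, edgeR adjusted p = 0.497). Leaving out Wt1 siRNA library 6 gave -2.11, and leaving out library 5 gave -0.53, with neither past the threshold.

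Between Ccl7 and Ccl8 lie Ccl11, eotaxin, an attractant of eosinophils through CCR3, and Ccl12, another ligand of CCR2 in mice. Ccl12 had 0 counts in all 6 libraries. Ccl11 stood at 0.223, 0.0725 and 1.16 CPM after Wt1 siRNA and at 1.36, 2.18 and 2.22 CPM after control siRNA, without overlap. Without its control reads Ccl11 would not have passed the filter. Its log2 fold change was -1.95 ± 0.80 and did not pass (edgeR adjusted p = 0.113); without Wt1 siRNA library 6 it was -3.66 and passed (adjusted p = 0.0122). Ccl11 and its neighbour Ccl7 thus had fold changes of opposite sign that did not pass.

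Ccl9 (gene ID 20308, chromosome 11, 83572917 to 83578636), a ligand of CCR1 in mice, stood at 2.12, 3.59 and 3.35 CPM after Wt1 siRNA and at 4.69, 4.86 and 5.19 CPM after control siRNA. All 3 Wt1 siRNA libraries lay below all 3 controls. The mean was 3.02 ± 0.79 CPM with Wt1 siRNA and 4.91 ± 0.25 CPM in the controls (SD, n = 3 each), and the log2 fold change was -0.70 ± 0.29 (interval -1.33 to -0.07), with an edgeR adjusted p = 0.117 and an unadjusted p = 0.0331. With a library left out its adjusted p was 0.128 to 0.335. Ccl6, the next gene of the cluster 9.25 kb further on and also a CCR1 ligand, had a log2 fold change of 0.09 ± 0.32 (adjusted p = 0.885), with 3.09, 2.75 and 2.97 CPM after Wt1 siRNA against 3.12, 2.71 and 2.44 CPM after control siRNA. Ccl6 overlaps E230016K23Rik, and without a stated strand setting their reads cannot be told apart.

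Ccl5 (gene ID 20304, chromosome 11, 83525778 to 83530518), RANTES, which attracts T cells and monocytes through CCR1 and other receptors, was counted 7, 0 and 8 times after Wt1 siRNA and 24, 23 and 11 times after control siRNA. The groups did not overlap, at 0.26, 0 and 0.25 CPM after Wt1 siRNA against 0.741, 0.809 and 0.413 CPM after control siRNA. The log2 fold change of -1.91 ± 0.97 (interval -4.02 to 0.20) had an edgeR adjusted p = 0.200. It rests on 15 reads in the Wt1 siRNA group and 58 in the controls. Ccl5 passed the filter through the controls alone, which favours a negative sign.

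Of Ccl17, Ccl19, Ccl20 and Ccl25, known for guiding lymphocytes and dendritic cells to their sites, Ccl25 (gene ID 20300, chromosome 8, 4325205 to 4360020), the CCR9 ligand of thymus and gut, alone had enough reads to test. It stood at 1.0, 0.58 and 1.06 CPM after Wt1 siRNA and at 1.02, 2.22 and 1.43 CPM after control siRNA. The groups overlapped and the log2 fold change was -0.81 ± 0.56 (interval -2.04 to 0.42, edgeR adjusted p = 0.363). Elavl1, which shares windows with Ccl25, had a mean of 92.2 CPM over all libraries, against 1.22 CPM for Ccl25. How far reads of Elavl1 enter the value of Ccl25 was not tested, so this value is uncertain. Ccl17, the CCR4 ligand, had 0 counts in each library, where 3 counts would be 0.0926 to 0.113 CPM. Ccl19, the CCR7 ligand, had 5 counts in control library 2 and 0 in the others. Ccl20, the CCR6 ligand, had 6 counts in Wt1 siRNA library 5, 7 in control library 1 and 0 in the others.

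Cx3cl1 (gene ID 20312, chromosome 8, 94772180 to 94782427), the ligand of CX3CR1 on monocytes and macrophages, had the smallest p of the members. It stood at 2.34, 4.13 and 2.28 CPM after Wt1 siRNA and at 3.70, 6.62 and 5.75 CPM after control siRNA. The groups overlapped at Wt1 siRNA library 5 and control library 1, with a mean of 2.92 ± 1.05 CPM after Wt1 siRNA and 5.36 ± 1.5 CPM after control siRNA (SD, n = 3 each). The log2 fold change was -0.87 ± 0.33 (95% interval -1.60 to -0.15), a ratio of 0.545 with an interval of 0.329 to 0.904 (edgeR adjusted p = 0.0892, unadjusted p = 0.0227). Without Wt1 siRNA library 5 it was -1.21 and passed (adjusted p = 0.0435). The genes on its sides, Ccl22 and Ccl17, had 5 and 0 counts in all libraries together.

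**Figure D2:**
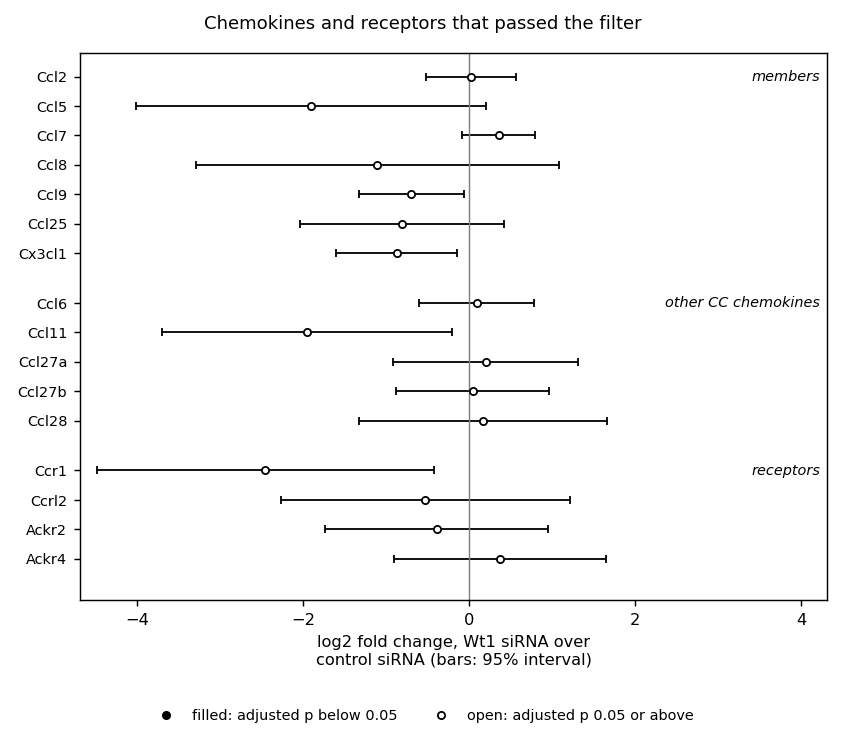
Log2 fold change of Wt1 siRNA over control siRNA on the horizontal axis, with its 95% interval, for the tested members, the other CC chemokines and the receptors; open points did not pass an adjusted p of 0.05 (edgeR). All points are open, and the intervals of Ccl9, Cx3cl1, Ccl11 and Ccr1 lie below 0.

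Several members differed between libraries of the same group. Ccl2, Ccl7 and Ccl8 were each lowest in library 5 among those with Wt1 siRNA and in library 2 among the controls. Wt1 siRNA library 5 held 0.828, 0.856 and 0 times the mean of its group for Ccl2, Ccl7 and Ccl8, and control library 2 held 0.616, 0.701 and 0.259 times the control mean. Cx3cl1 was highest in the same libraries, at 1.42 times the group mean in Wt1 siRNA library 5 and 1.24 times in control library 2. The other tested members did not share either order. Ccl5 and Ccl25 were lowest in Wt1 siRNA library 5 (0 and 0.657 times its group mean) and highest in control library 2 (1.24 and 1.43 times), and Ccl9 was highest in Wt1 siRNA library 5 (1.19 times) and near the mean in control library 2 (0.989 times). Marker genes went both ways in these libraries: of the fibroblast markers Col1a1 was highest and Dcn lowest of its group in both, and of the macrophage markers Mrc1 was highest and Csf1r lowest in both. Their part in the order of the members was not tested.

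**Figure D3:**
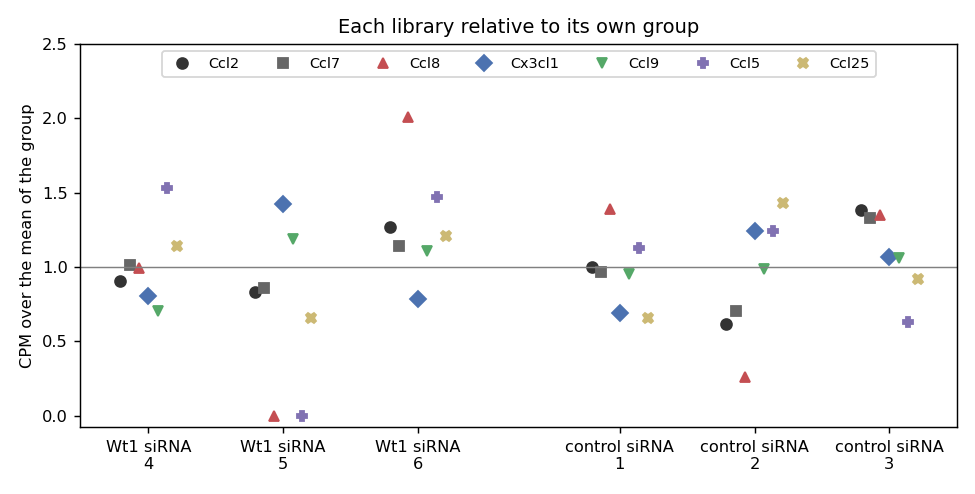
CPM of each library divided by the mean of its own group, for the 7 tested members, with the Wt1 siRNA libraries on the left and the control libraries on the right; the grey line is the group mean. Ccl2, Ccl7 and Ccl8 are lowest, and Cx3cl1 highest, in Wt1 siRNA library 5 and control library 2, while Ccl5, Ccl9 and Ccl25 follow neither order.

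The 4 genes whose profile over the 6 libraries was most like that of Ccl2, the member with the highest mean CPM, were Pop1, a protein of RNase P, Dusp6, a phosphatase that inactivates ERK, Cmtr2, an mRNA cap methyltransferase, and Alkbh8, a tRNA methyltransferase. The root mean square difference of centred log2 CPM was 0.062, 0.101, 0.113 and 0.123 for them among 10995 genes (those above 2 in average log2 CPM). Ccl7 ranked 71, at 0.201. Dusp6 stood at 46.9, 44.0 and 70.3 CPM after Wt1 siRNA and at 57.9, 38.6 and 71.8 CPM after control siRNA, and its log2 fold change, -0.060, did not pass (edgeR adjusted p = 0.890).

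Receptors of these ligands had few or no reads. Of 16 receptor genes 6 had 0 counts in all libraries, and 12 were under the filter, among them Ccr2, Ccr8 and Cx3cr1. Of the 4 tested, 0 passed (edgeR; 0 with limma-voom), 1 of them with an unadjusted p below 0.05. That gene, Ccr1, named after its values were seen, stood at 0.298, 0 and 0.469 CPM after Wt1 siRNA and at 0.833, 0.985 and 2.52 CPM after control siRNA. Without its control reads Ccr1 would not have passed the filter. Its log2 fold change was -2.46 ± 0.93 (edgeR adjusted p = 0.0866; DESeq2 adjusted p = 0.0383). In the other alternatives its adjusted p was 0.0702 to 0.349, and with a library left out its log2 fold change was between -3.24 (without Wt1 siRNA library 6) and -1.80 (without control library 3). Of the other 16 CC and XC chemokines 5 were tested and 0 passed, with a median log2 fold change of 0.090 (Ccl11 alone had an unadjusted p below 0.05); Ccl27a and Ccl27b share 45% and 98.1% of their windows with copies, so their values are uncertain.

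Markers of myeloid cells were low in all libraries, and some moved with the groups. Summed over 12 macrophage and monocyte markers, of which 7 had reads in every library and 0 were at 0 in all, the level was 35.3 to 39.3 CPM after Wt1 siRNA and 41.9 to 52.1 CPM after control siRNA. Lyz2, a lysozyme, and Cd14, a coreceptor for lipopolysaccharide, had the highest levels of the list. Lyz2 did not pass (log2 fold change 0.14, edgeR adjusted p = 0.577); Csf1r had -0.060 (adjusted p = 0.947); Adgre1, which encodes F4/80, was at 0 in the controls and at most at 0.362 CPM after Wt1 siRNA. Of the 7 tested 1 was lower, against 10.3% of all genes tested. This was Cd14 (log2 fold change -1.15 ± 0.22, edgeR adjusted p = 0.0037). It stood at 5.88, 8.88 and 10.5 CPM after Wt1 siRNA and at 15.6, 19.8 and 20.6 CPM after control siRNA. Without Cd14 the macrophage and monocyte sums of the groups overlap. The 4 neutrophil markers summed to 3.05 to 3.24 CPM after Wt1 siRNA and 4.89 to 8.27 CPM after control siRNA, with Retnlg at 0. S100a8, a calcium-binding alarmin, was lower (-3.36 ± 0.68, edgeR adjusted p = 0.00515). It stood at 0.0744, 0.326 and 1.06 CPM after Wt1 siRNA and at 6.48, 2.25 and 6.84 CPM after control siRNA. Without S100a8 the neutrophil sums of the groups overlap. Without its control reads S100a8 would not have passed the filter. With a library left out the log2 fold change of S100a8 was between -4.66 (Wt1 siRNA library 6 left out) and -2.87 (library 4 left out), past the threshold each time. Csf3r, the receptor of granulocyte colony-stimulating factor, had 0.53 and did not pass (adjusted p = 0.446), and S100a9 had reads in Wt1 siRNA library 4 alone. Dendritic cell markers summed to 4.41 to 7.10 CPM after Wt1 siRNA and 6.79 to 8.57 CPM after control siRNA, with Cd209a at 0. For T and NK cells the sums were 0.254 to 0.501 CPM after Wt1 siRNA and 0.123 to 0.387 CPM after control siRNA, with Cd3e, Cd3g and Gzma at 0, and for B cells 0 to 0.157 CPM after Wt1 siRNA and 0.0617 to 0.915 CPM after control siRNA, with Cd79b at 0. In the same libraries Ccl5, Ccl8, Ccl9, Ccl11, Ccl25, Ccr1 and Cx3cl1 had negative fold changes, and Ccl2 and Ccl7 positive ones. None of these passed (edgeR), and the part of myeloid or lymphoid cells in them was not tested.

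Sums for the structural cell types of the lung differed too, and overlapped between the groups for endothelial markers alone. They were 84.3 to 103.7 CPM after Wt1 siRNA and 98.8 to 123.7 CPM after control siRNA for 7 endothelial markers. For 8 epithelial markers, with Sftpa1 and Scgb1a1 at 0, they were 40.3 to 46.7 CPM after Wt1 siRNA and 47.0 to 63.7 CPM after control siRNA. Of the 5 epithelial markers tested 1 was lower, Krt18 (log2 fold change -0.59 ± 0.16, edgeR adjusted p = 0.0214). Without Krt18 the epithelial sums of the groups overlap. For 6 mesothelial markers, which include Wt1, the sums were 105.4 to 132.2 CPM after Wt1 siRNA and 173.2 to 209 CPM after control siRNA. Of these markers 3 were higher and 3 lower (edgeR). Without Wt1, the target of the siRNA, the mesothelial sums of the groups overlap. The 9 fibroblast markers summed to 32960 to 40190 CPM after Wt1 siRNA and 21200 to 30440 CPM after control siRNA, with 5 of them higher and 2 lower. Of all genes tested 9.05% were higher and 10.3% lower (edgeR). Most of the fibroblast sum was Col1a1 (mean 17420 CPM after Wt1 siRNA, 7982 CPM after control siRNA) and Col1a2 (9655 and 5793 CPM), both higher. Col3a1 (5391 and 7430 CPM) and Pdgfra (523.2 and 1181 CPM) were lower.

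Some genes whose products release or trim chemokines changed. Of 9 proteases and their cofactors 1 was higher and 4 lower (edgeR; 9.05% and 10.3% of all genes), with a median log2 fold change of -0.10. Adam10, the constitutive sheddase of CX3CL1, fell to 165.6, 202.6 and 174.1 CPM after Wt1 siRNA, against 266.7, 307.0 and 301.7 CPM after control siRNA (log2 fold change -0.69 ± 0.11, adjusted p = 0.00145). All 3 Wt1 siRNA libraries lay below all controls. Adam17, the inducible sheddase, had -0.10 ± 0.12 (adjusted p = 0.623), while Rhbdf2, iRhom2, which brings ADAM17 to the cell surface, rose by 0.93 ± 0.16 (adjusted p = 0.00196).

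Mmp3, stromelysin 1, whose human form cleaves CCL2 and CCL7, fell to 40.1, 27.4 and 55.9 CPM after Wt1 siRNA, against 191.4, 161.7 and 209.4 CPM after control siRNA. That was 4.55-fold lower (log2 fold change -2.19 ± 0.21, edgeR adjusted p = 6.77e-05). Mmp2, gelatinase A, whose human form trims CCL7 into an antagonist, fell by 0.52 ± 0.11 on the log2 scale (adjusted p = 0.00765).

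**Figure D4:**
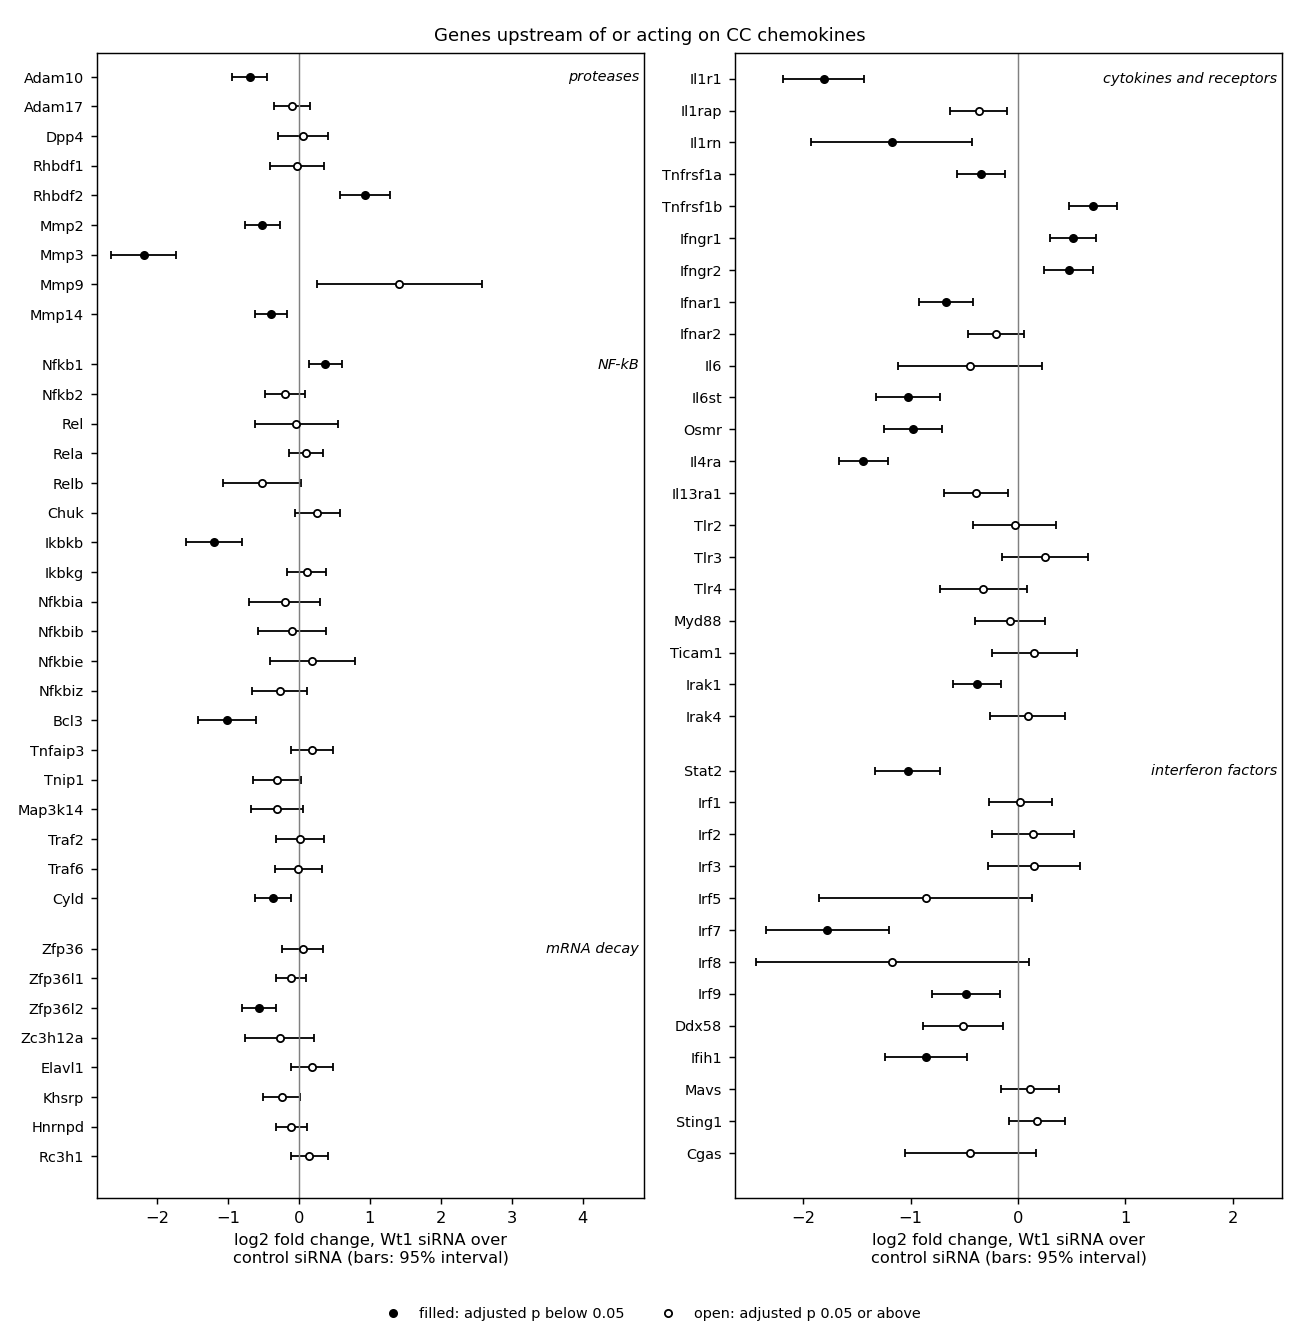
Log2 fold change of Wt1 siRNA over control siRNA on the horizontal axes, with 95% intervals, for tested genes of 5 lists: proteases, NF-kB genes and mRNA decay (left), cytokines with their receptors and interferon-regulated factors (right); filled points passed an adjusted p of 0.05 (edgeR). The farthest below 0 among filled points are Mmp3 (-2.19), Il1r1 (-1.81) and Irf7 (-1.77). The list of cytokines and receptors also holds Toll-like receptors with their adaptors and kinases.

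Receptors of cytokines that induce CC chemokines changed in both directions. The list held 24 genes: such cytokines, their receptors and an antagonist, and Toll-like receptors with their adaptors and kinases. Of these 21 were tested, with a median log2 fold change of -0.34. With edgeR 3 were higher and 8 lower, against 9.05% and 10.3% of all genes. Irak1, a kinase, and Il1rn, an antagonist of interleukin 1, were among the lower ones, and were named after their values were seen. The count of lower genes was 5 when control library 1 was left out, or library 4 or 5 of those with Wt1 siRNA. Il4ra, the shared chain of the receptors for interleukins 4 and 13, fell to 92.4, 87.3 and 103.0 CPM after Wt1 siRNA, against 249.1, 255.1 and 262.9 CPM after control siRNA (2.71-fold lower, adjusted p = 1.4e-05). Il1r1, the signalling receptor of interleukin 1, fell to 29.2, 31.0 and 49.0 CPM after Wt1 siRNA, against 126.6, 131.4 and 125.1 CPM after control siRNA (3.51-fold lower, adjusted p = 6.77e-05). In both genes the groups were far apart. Osmr, the oncostatin M receptor, fell by 0.98 ± 0.12 (log2; adjusted p = 2.98e-04), and Il6st, the gp130 chain it signals with, fell by 1.02 ± 0.14 (adjusted p = 4.47e-04).

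The 3 that were higher, named after their values were seen, were Tnfrsf1b, a receptor of TNF (0.70 ± 0.10, edgeR adjusted p = 7.81e-04), and both chains of the interferon gamma receptor, Ifngr1 (0.51 ± 0.10, adjusted p = 0.00396) and Ifngr2 (0.47 ± 0.10, adjusted p = 0.00783). Ifngr2 did not pass when Wt1 siRNA library 4 was left out (adjusted p = 0.0585). Other receptors of TNF and interferon were lower, and were also named after their values were seen. Tnfrsf1a, the other receptor of TNF, had -0.34 ± 0.10 (edgeR adjusted p = 0.0366). Ifnar1, a chain of the type I interferon receptor, had -0.67 ± 0.11 (adjusted p = 0.00186). The ligands Il1a, Il1b and Tnf were under the filter, and Tnf had 0 counts in all libraries.

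In the NF-kB pathway, which drives Ccl2, Ccl5 and Cx3cl1 in many cells, 1 of 19 genes was higher, 3 were lower and 15 did not pass (edgeR; median -0.10), a share near the 19.3% of all genes that passed. Ikbkb, the kinase IKK beta, fell to 16.0, 13.8 and 10.1 CPM after Wt1 siRNA, against 32.7, 32.9 and 25.9 CPM after control siRNA (2.29-fold lower, adjusted p = 9.42e-04), without overlap. Bcl3, a nuclear partner of the p50 subunit, fell by 1.01 ± 0.19 on the log2 scale (adjusted p = 0.00304). Nfkb1, which encodes p50, had 0.37 ± 0.11 (adjusted p = 0.032), and Cyld, a deubiquitinase that restrains the pathway, had -0.37 ± 0.12 (adjusted p = 0.0487). Neither passed with any library left out (adjusted p = 0.0553 to 0.0956 for Nfkb1 and 0.0633 to 0.162 for Cyld).

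Of 14 interferon-regulated factors and sensors 5 were lower and 0 higher (edgeR; 0 also in the unadjusted test, and with the other tools, DESeq2 and limma-voom), with a median of -0.50. Of all genes 10.3% were lower. Stat2, which carries the interferon signal to the nucleus, fell by 1.03 ± 0.14 on the log2 scale (adjusted p = 4.52e-04). Irf7, an amplifier of the interferon response, fell to 3.83, 4.75 and 4.88 CPM after Wt1 siRNA, against 12.3, 22 and 11.8 CPM after control siRNA (-1.77 ± 0.26, adjusted p = 7.94e-04). Ifih1, the RNA sensor MDA5, fell by 0.86 ± 0.17 (adjusted p = 0.00502). Of 8 genes that control decay of chemokine mRNA 1 was lower, Zfp36l2, a protein that binds AU-rich elements (-0.56 ± 0.11, adjusted p = 0.00478).

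RefSeq promoters (GRCm38.p6, 250 bases before to 50 after the start) were at hand for 7 members, Ccl8, Ccl9, Ccl17, Ccl19, Ccl20, Ccl25 (with 2 starts) and Cx3cl1, and were searched on both strands for 4 motifs. The WT1/EGR box GCGNGGGNG was in 0 of them and in 12.3% of all 32851 promoters. The NF-kB motif, GGGA and CC with any 4 bases between (20.7% of all promoters) was in those of Ccl19 and Ccl20, the interferon element, 2 copies of GAAA with any 2 bases between (3.44%), in that of Ccl19, and the AP-1 motif TGANTCA (7.81%) in that of Ccl9. No motif of the 4 was in those of Ccl8, Ccl17, Ccl25 or Cx3cl1. The promoters of the members with the smallest p follow, with any of the 4 motifs in capitals.
Ccl9, minus strand, chr11:83578587-83578886: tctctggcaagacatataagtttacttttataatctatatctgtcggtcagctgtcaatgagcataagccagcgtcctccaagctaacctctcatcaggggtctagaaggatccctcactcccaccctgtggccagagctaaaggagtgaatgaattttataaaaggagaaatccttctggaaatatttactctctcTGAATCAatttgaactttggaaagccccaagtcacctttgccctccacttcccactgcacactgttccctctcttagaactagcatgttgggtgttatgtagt
Cx3cl1, plus strand, chr8:94771930-94772229: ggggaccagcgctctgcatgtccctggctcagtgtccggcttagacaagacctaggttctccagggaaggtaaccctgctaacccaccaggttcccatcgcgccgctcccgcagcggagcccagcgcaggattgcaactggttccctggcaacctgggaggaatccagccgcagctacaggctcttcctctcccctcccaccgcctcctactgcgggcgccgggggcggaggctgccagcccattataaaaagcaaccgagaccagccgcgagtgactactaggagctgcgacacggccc
In Ccl9 the AP-1 letters stand 53 bases before the start, and Cx3cl1 has no capitals. A match is a description of the letters only, and the labels give no binding data.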

How the data were processed

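RNA of 6 libraries was measured by Illumina sequencing, per the labels' protocols. The deposited table holds the authors' raw whole-number counts per Entrez gene, without normalization. TopHat, DESeq, CASAVA 1.8, bcl2fastq and the build mm10 (GRCm38) appear in the submitters' processing notes, without roles; how reads were counted, with which annotation and strand, is not given in the sources used here. RefSeq GRCm38.p6 named 23976 of 24061 IDs. Counts were tested with edgeR 4.0.16 (R 4.3.3): TMM, filterByExpr, quasi-likelihood F test on the siRNA group, Benjamini-Hochberg over 14190 genes, threshold 0.05. The SE is the absolute log2 fold change over the square root of F; the 95% interval uses the fit's degrees of freedom. Log2 CPM for profiles used a prior count of 2. Exon lengths are unions of GENCODE M21 basic exons. The procedure was tested on simulated data. Chi-square values per degree of freedom of pairs within a group were 18.9 to 70.9, so none was counted as a repeat. Alternatives were DESeq2 1.42.0, limma-voom 3.58.1, other scalings and filters, robust shrinkage and leaving out each library.

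Named genes are all members, at most 4 called genes with the smallest p of each other list, Ccl11 and Ccl12, marker genes, Wt1, and the 4 profiles nearest to the most abundant member. Members and lists were chosen with earlier results of these data known. A few genes of the lists are not reported here by name.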

Additional observations from a re-analysis of the deposited data

How the results depend on the processing

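Of 90 log2 fold changes of the 7 tested members under the 13 alternatives 86 kept their sign and their side of the threshold. Ccl2 changed sign in 3, to -0.060 with library size scaling, and with a library left out it ran from -0.23 (control library 2) to 0.32 (control library 3), with -0.18 for Wt1 siRNA library 6. Cx3cl1 passed without Wt1 siRNA library 5 (-1.21), so that the count of lower members ran from 0 to 1 with a library left out, and it was 0 in the other alternatives. No member was higher in any alternative (0). Over all genes, with a library left out 578 to 1253 were higher and 785 to 1406 lower, against 1284 and 1459 with all libraries. Library size scaling gave 855 higher genes and 1829 lower, so that 31.9% of calls were higher in place of 46.8%, and with it Nfkb1 did not pass (adjusted p = 0.106). Cyld did not pass without the filter (adjusted p = 0.058), and 2 proteases were higher with the stricter filter. The causes were not tested. The other gene lists and named genes were rerun under the same alternatives after seeing the data. Members below 6 CPM rest on 0 to 188 reads a library, and their intervals are wide. No paired analysis was possible because the groups share no replicate numbers.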
